A study of Mus musculus with 12 samples.

Results

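A set of 9 genes of the primed epiblast and of the Nodal pathway were followed through mouse embryonic stem cells with and without an shRNA against Setdb1, the gene of an H3K9 methyltransferase. The genes, Nodal, Lefty1, Lefty2, Cer1, Fst, Otx2, Pou3f1, Fgf5 and Wnt8a, were taken by symbol from the 26061 rows of the deposited gene table, and all 9 were found there. The cells were of the E14 line, from 129/Ola mice, on gelatin and free of feeders. They were infected with a lentivirus carrying shSetdb1 or the scrambled shScr, put under puromycin (1 µg/ml) at 48 h and harvested after 3 days of selection. The 4 groups of 3 libraries were shSetdb1 in 2i medium, shScr in 2i medium, shSetdb1 in serum medium and shScr in serum medium. The 2i medium carried N2, B27, LIF, PD0325901 to inhibit MEK and CHIR99021 to inhibit GSK3, and cells in it are labelled naive. The serum medium carried 15% fetal bovine serum and 1000 U/ml LIF, and cells in it are labelled primed. LIF, puromycin and a lentiviral shRNA were thus common to all groups. One shRNA sequence against Setdb1 was labelled and no group had Setdb1 put back, so depletion of Setdb1 and other effects of that shRNA cannot be told apart. The labels do not say whether replicates were separate cultures, so p-values measure the spread between these libraries, which may be technical.

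Nodal is a secreted ligand of the TGF-beta family that binds activin receptors with an EGF-CFC co-receptor and signals through Smad2, Smad3 and Foxh1. Its own inhibitors Lefty1 and Lefty2 are among its targets, which closes a negative feedback loop, while Cer1 binds Nodal outside the cell and Fst, follistatin, binds activin. In the mouse embryo Otx2, Pou3f1 and Fgf5 come up as the naive epiblast moves toward the formative and primed states, and Wnt8a is a Wnt ligand of the epiblast and early primitive streak. Serum medium lets MEK-ERK signalling run, whereas 2i blocks it and mimics Wnt stimulation.

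Libraries held 4821181 to 15509401 gene reads, the fewest in 2i shSetdb1 replicate 3. Structural RNAs, which here include tRNA, snRNA, 5S and the large ribosomal RNA families, took 15.6 to 69.5% of repeat reads, and within each group the share was highest in replicate 3. Setdb1 had 837, 610 and 340 normalised reads in 2i shSetdb1 libraries against 3607, 2724 and 2253 in 2i shScr libraries, and 418, 379 and 409 in serum shSetdb1 libraries against 2959, 2237 and 1587 in serum shScr libraries. Normalised reads are reads recovered from the deposited log2 values and divided by the library's size factor. A log2 change is a difference between means of the deposited variance-stabilised values, which understates changes of genes with few reads. Tests were made with limma over 14487 genes, and a gene was counted as passing when its p, adjusted by Benjamini-Hochberg, was under 0.05. Of the 9 genes, 7 were tested, since Fgf5 and Cer1 had too few reads. Wnt8a and Pou3f1 reached the tested set through their serum values, because their 2i means were no more than 0.38 above the lowest value of the table.

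Of these genes, those that passed did so between media. Fst was higher in 2i than in serum in both shRNA arms, and Lefty2 was higher in 2i in the shScr arm. Pou3f1 and Wnt8a passed as lower in 2i in the shSetdb1 arm, but their serum reads are what brought them into the tested set, so these calls describe them and support nothing further. In 2i, 0 of the 7 genes passed between shSetdb1 and shScr, where 1.27% of all tested genes passed, and in serum 0 of 7 passed, where 0.649% did. By limma 1 of the 7 had an unadjusted p under 0.05 in each medium, Fst in 2i and Wnt8a in serum. Of the 14487 tested genes, 1067 had one in 2i and 738 in serum, so nothing is read from these counts of 1. Wnt8a was in the tested set only through its serum shSetdb1 values. Voom on the recovered reads also passed 0 members in both media. The difference between the knockdown changes, 2i minus serum, passed for 0% of genes. Here 404 genes and 0 members had an unadjusted p under 0.05 in limma, and voom passed 0 genes. Between media in shSetdb1 cells, 1 member was higher in 2i, where 2.15% of genes were, and 2 were lower, where 1.6% were. In shScr cells, 2 members were higher in 2i, where 1.73% of genes were, and 0 were lower, where 1.88% were. Since Wnt8a and Pou3f1 entered through serum, nothing is read from these counts of members that passed. Libraries of the groups compared did not overlap for 2 of the 7 genes with the knockdown in 2i (10.7% of all tested genes), 1 of 7 in serum (9.71%), 3 of 7 between media in shSetdb1 cells (19.1%) and 4 of 7 between media in shScr cells (23.8%).

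**Figure D1:**
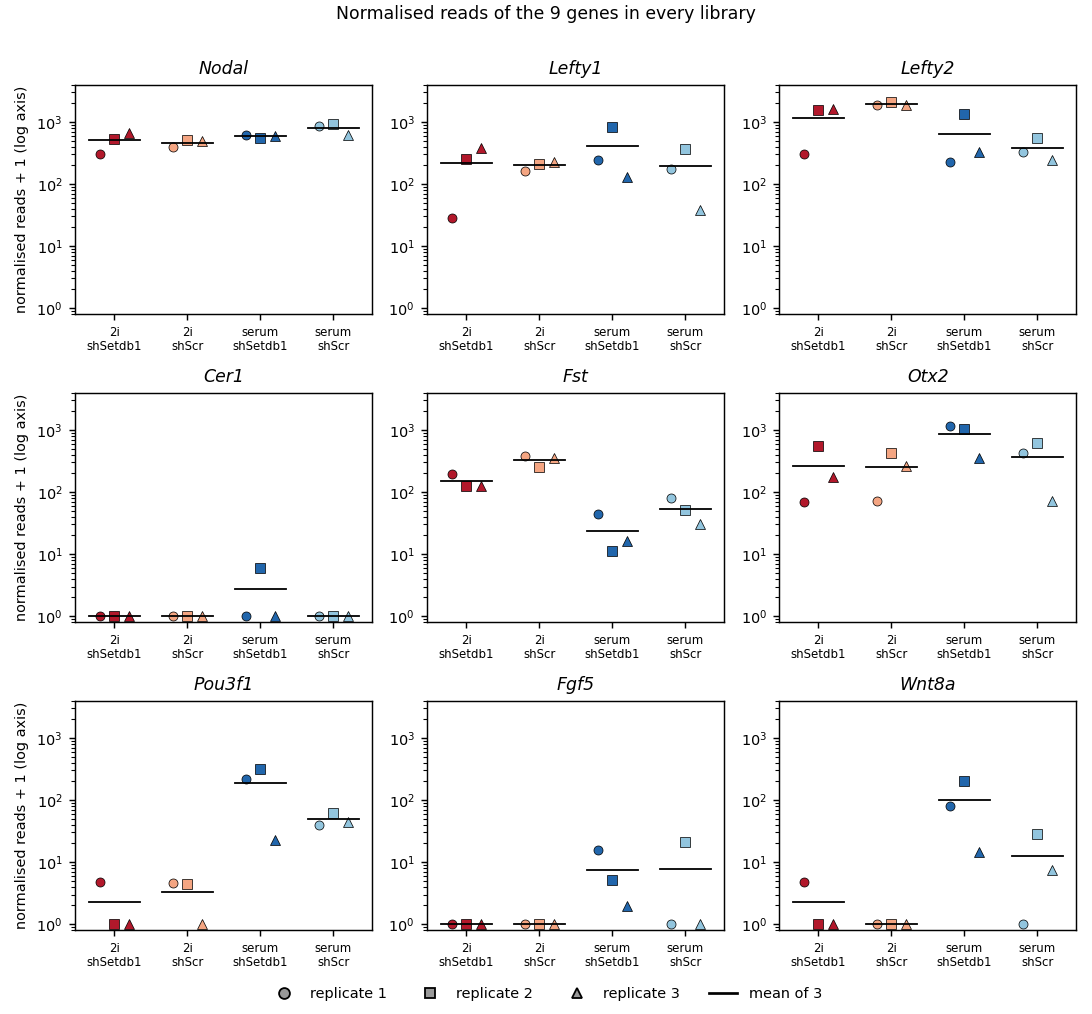
Normalised reads plus 1, on a log axis, of each of the 9 genes in the 12 libraries, with 1 symbol per replicate number and a line at the mean of 3. Fst sits higher in both 2i groups than in both serum groups, Pou3f1 and Wnt8a have at most 3.84 normalised reads in any 2i library, and Otx2, Lefty1 and Lefty2 spread widely inside several groups.

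Nodal, the ligand itself, had 309, 536 and 664 normalised reads in 2i shSetdb1 libraries against 392, 516 and 489 in 2i shScr libraries, and the groups overlapped. It had 608.5, 553 and 600.2 in serum shSetdb1 libraries against 850.0, 916 and 609.5 in serum shScr libraries. All 3 serum knockdown libraries lay below all 3 serum control libraries, although the closest pair, 608.5 against 609.5, was nearly equal. The log2 change was 0.05 in 2i (SE 0.293, limma adjusted p = 0.984) and −0.39 in serum (SE 0.293, limma adjusted p = 1). The 95% intervals of these changes ran from −0.57 to 0.67 in 2i and from −1.01 to 0.24 in serum. Between media, shScr cells had less Nodal in 2i in 3 of 3 libraries, with a log2 difference of −0.70 that did not pass (SE 0.293, limma adjusted p = 0.218). The same difference in shSetdb1 cells was −0.27 (SE 0.293, limma adjusted p = 0.665). In bulk RNA, fewer cells making a transcript and less of it per cell cannot be told apart, here and for every gene below.

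Lefty1 and Lefty2, the feedback inhibitors, are neighbours in sequence as well as in function, and both lie on chromosome 1. Their coding sequences in the GENCODE transcripts of GRCm38 are both 1104 bases long and aligned without gaps, with 1014 identical bases (91.8%). How reads that match both genes were counted is not given in the sources used here. The most divergent 120 bases, coding positions 46 to 165, are shown because reads from there can be told apart, and their 34 differing bases are in capitals.
Lefty1: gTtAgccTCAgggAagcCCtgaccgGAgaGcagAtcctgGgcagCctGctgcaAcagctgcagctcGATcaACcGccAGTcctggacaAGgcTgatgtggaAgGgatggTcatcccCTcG
Lefty2: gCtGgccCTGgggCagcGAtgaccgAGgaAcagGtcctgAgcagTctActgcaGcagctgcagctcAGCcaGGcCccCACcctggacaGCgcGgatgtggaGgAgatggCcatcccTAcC
Of all windows of 50 bases along the message, 281 of 1571 (17.9%) of Lefty1 and 281 of 2424 (11.6%) of Lefty2 occur in the other message. Most positions of each gene are therefore distinct at that length.

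Lefty2 had 300.5, 1545 and 1632 normalised reads in 2i shSetdb1 libraries against 1881, 2108 and 1874 in 2i shScr libraries. It had 229.7, 1370 and 325 in serum shSetdb1 libraries against 333, 548 and 243.8 in serum shScr libraries. Each 2i shScr library was above every serum shScr library, at 1954 ± 133 against 375 ± 156 normalised reads (SD, n = 3 each), 5.21-fold higher. The log2 difference was 2.32 (SE 0.603, limma adjusted p = 0.046), close to the threshold. It did not pass without any one of the 6 libraries compared (limma adjusted p from 0.0837 without serum shScr replicate 2 to 0.136 without 2i shScr replicate 3) or without 2i shSetdb1 replicate 2 (limma adjusted p = 0.0516), while the difference stayed between 2.08 and 2.61. In shSetdb1 cells the media overlapped, and the log2 difference of 0.90 did not pass (SE 0.603, limma adjusted p = 0.46). With the knockdown in 2i, all 3 libraries lay below all 3 controls, yet the log2 change of −1.04 did not pass (SE 0.603, limma adjusted p = 0.799). Replicate 1 carried most of it, since the change was −0.29 without it. In serum the log2 change was 0.38 (SE 0.603, limma adjusted p = 1) and turned to −0.34 without shSetdb1 replicate 2, the library with 1370 normalised reads.

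Lefty1 had 26.9, 248 and 384 normalised reads in 2i shSetdb1 libraries against 159, 211 and 225 in 2i shScr libraries, which overlapped. In serum it had 246, 840.5 and 128 in shSetdb1 libraries against 171.5, 368 and 37.4 in shScr libraries. Each serum knockdown library was above the control library of the same number, with ratios of 1.43, 2.29 and 3.43, although the groups overlapped. The log2 change was −0.27 in 2i (SE 0.719, limma adjusted p = 0.961), and 0.56 without shSetdb1 replicate 1. In serum it was 0.91 (SE 0.719, 95% interval −0.62 to 2.44, limma adjusted p = 1), and 0.24 without shSetdb1 replicate 2. Replicate 1 of 2i shSetdb1 was the lowest library of its group for Nodal, Lefty1, Lefty2 and Otx2. Between media the log2 difference of Lefty1 was −0.82 in shSetdb1 cells (SE 0.719, limma adjusted p = 0.578) and 0.35 in shScr cells (SE 0.719, limma adjusted p = 0.875).

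The share of Lefty2 in the reads of the Lefty pair needs no size factor. It was 91.8, 86.2 and 80.9% in 2i shSetdb1 libraries and 92.2, 90.9 and 89.3% in 2i shScr libraries. It was 48.3, 62.0 and 71.7% in serum shSetdb1 libraries and 66.0, 59.8 and 86.7% in serum shScr libraries. Single libraries held 263 to 3362 reads of Lefty1 plus Lefty2, and the widest Wilson 95% interval, which covers counting error only, was 61.6 to 70.2% in serum shScr replicate 1. In both arms every 2i library had a larger Lefty2 share than every serum library, with means of 86.3 against 60.7% in shSetdb1 cells and 90.8 against 70.8% in shScr cells. Both differences had p = 0.1 in a two-sided exact permutation test, which is the smallest p that 3 against 3 libraries allow (0.2 after adjustment over 4 such tests). With the knockdown the share differed by −4.5 points in 2i (exact permutation p = 0.3) and by −10.2 points in serum (exact permutation p = 0.5). These are shares of reads and not of molecules, because the Lefty2 message is longer, at 2473 bases against 1620.

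**Figure D2:**
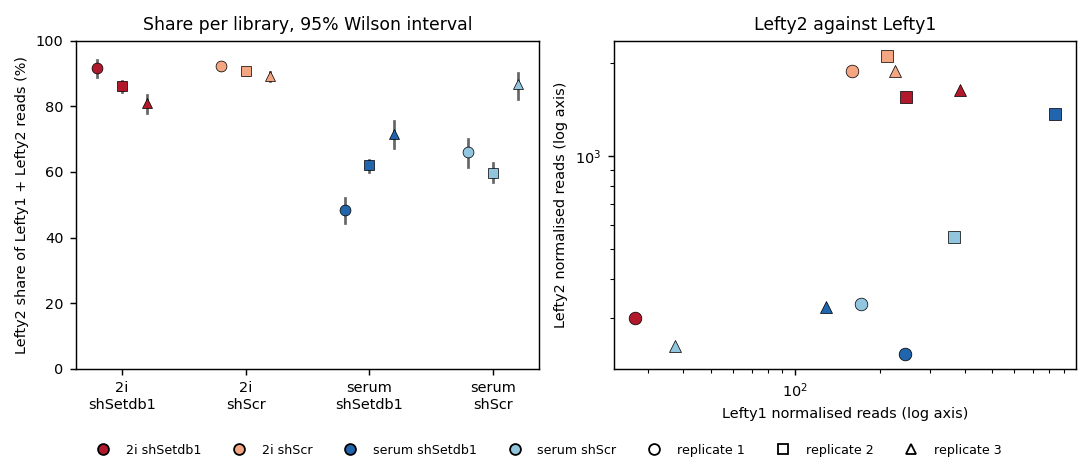
Left, the share of Lefty2 in Lefty1 plus Lefty2 reads (%) in each library, with Wilson 95% intervals. Right, normalised reads of Lefty2 against Lefty1 on log axes, 1 point per library, where the 2i shScr libraries lie at 1874 to 2108 normalised Lefty2 reads.

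Fst, the activin-binding inhibitor, was higher in 2i than in serum in both shRNA arms. It had 195, 125 and 124 normalised reads in 2i shSetdb1 libraries against 386, 249 and 349 in 2i shScr libraries, and 43.4, 10.1 and 15.3 in serum shSetdb1 libraries against 79.2, 49.7 and 29.9 in serum shScr libraries. All 2i libraries were above all serum libraries. In shScr cells Fst averaged 328 ± 71.0 normalised reads in 2i and 53.0 ± 24.8 in serum (SD, n = 3 each), 6.19-fold higher in 2i, with a log2 difference of 2.04 (SE 0.347, limma adjusted p = 0.00483). That call held in all 12 fits that left out 1 library and in all 10 other alternatives run for it. In shSetdb1 cells Fst averaged 148 ± 40.7 in 2i and 22.9 ± 17.9 in serum (SD, n = 3 each), 6.46-fold higher, with a log2 difference of 1.75 (SE 0.347, limma adjusted p = 0.0116). It did not pass without serum shSetdb1 replicate 2 (difference 1.56, limma adjusted p = 0.0824).

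Fst was also lower in each shSetdb1 library than in the shScr library of the same number, in 6 of 6 pairs. The ratios were 0.505, 0.502 and 0.357 in 2i and 0.547, 0.203 and 0.512 in serum. In 2i the knockdown libraries lay wholly below the controls, and in serum they overlapped. Neither change passed: the log2 change was −0.97 in 2i (SE 0.347, 95% interval −1.71 to −0.23, limma adjusted p = 0.387) and −0.68 in serum (SE 0.347, 95% interval −1.41 to 0.06, limma adjusted p = 1). The change in 2i differed from that in serum by −0.30 (SE 0.491, limma adjusted p = 1.00). Averaged over both media, a comparison added after these values were seen, the knockdown change was −0.82 (SE 0.246, 95% interval −1.35 to −0.30) and did not pass (limma adjusted p = 0.143, where 1.89% of genes passed). It passed with a replicate block within medium (limma adjusted p = 0.0277) or over all libraries (limma adjusted p = 0.0317). In 2i, though, the libraries of replicate 2 hardly deviated together over all genes (r = 0.06). An antisense gene, Gm47040, overlaps Fst in the GRCm38 annotation, and whether counting used strand is not given in the sources used here.

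Cer1, the secreted antagonist of Nodal that marks anterior visceral endoderm, was close to absent. It had 6 reads in serum shSetdb1 replicate 2 and 0 reads in the other 11 libraries. A count of 0 allowed up to 1.13 normalised reads over the 2i shSetdb1 group, 0.814 over 2i shScr and 1.01 over serum shScr, counting error only. Primitive and visceral endoderm markers, 14 genes including Gata4, Gata6 and Sox17, summed to 1729, 697.5 and 453.5 normalised reads in 2i shSetdb1 libraries against 1257, 1771 and 1566 in 2i shScr libraries. They summed to 1653, 995.5 and 438 in serum shSetdb1 libraries against 1759, 1497 and 1603 in serum shScr libraries, and 0 of the 9 tested passed in any of the 4 comparisons. Lama1 and Col4a1 made up most of each sum. Gata4, Gata6 and Sox17 had at most 22.8, 35.3 and 27.8 normalised reads in any library. The part of endoderm-like cells in the values of the 9 genes was not tested.

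Otx2, a homeobox transcription factor that helps bring cells out of the naive state, was read in every library. It had 68.4, 546 and 174 normalised reads in 2i shSetdb1 libraries against 71.5, 420.0 and 265 in 2i shScr libraries, and the groups overlapped. In serum it had 1171, 1049 and 348 in shSetdb1 libraries against 432, 609 and 70.6 in shScr libraries. Replicate 3 was the lowest library of both serum groups, and each serum knockdown library was above the control of its number, by 2.71, 1.72 and 4.93 times. The group means were 856 ± 444 and 371 ± 275 normalised reads (SD, n = 3 each), 2.31-fold higher with the knockdown. The log2 change of 1.31 did not pass (SE 0.724, 95% interval −0.23 to 2.85, limma adjusted p = 1). Same-numbered serum libraries deviated together over all genes, and with the replicate number as a block within each medium the change had a limma adjusted p = 0.0288. With 1 block over all libraries of both media it did not pass (limma adjusted p = 0.478). In the fit within medium 211 genes (1.46%) passed in serum, against 94 without the block. Structural RNA shares moved with the replicate, at 42.6 and 48.3% in the shSetdb1 and shScr libraries of replicate 3 against 15.6 to 29.9% in the other serum libraries, and without replicate 3 of every group the change was 1.05. The part of those RNAs in the result was not tested, and without 1 library at a time the change ran from 0.53 to 1.83. In 2i the log2 change of Otx2 was −0.07 (SE 0.724, 95% interval −1.61 to 1.47, limma adjusted p = 0.993). Its change in 2i minus that in serum was −1.38 (SE 1.02, limma adjusted p = 1.00). Between media, the log2 difference was −1.75 in shSetdb1 cells (SE 0.724, limma adjusted p = 0.208) and −0.37 in shScr cells (SE 0.724, limma adjusted p = 0.866). Otx2 overlaps Otx2os1 on the opposite strand and Gm49154 on its own strand in the GRCm38 annotation, so its reads may include theirs.

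Pou3f1, a POU transcription factor also called Oct6, had few reads in 2i. It had 3.84, 0 and 0 normalised reads in 2i shSetdb1 libraries against 3.61, 3.45 and 0 in 2i shScr libraries, in all 5 and 10 reads over the groups. In serum it had 216, 317.5 and 22.1 in shSetdb1 libraries against 39.1, 61.3 and 42.8 in shScr libraries. No 2i library reached the lowest serum library. All 5 reads of 2i shSetdb1 were in replicate 1, so no fold is given. In shSetdb1 cells the log2 difference, 2i minus serum, was −2.80 (SE 0.519, limma adjusted p = 0.00785), and the call was lost without serum shSetdb1 replicate 2 (difference −2.28, limma adjusted p = 0.056). In shScr cells it was 20.3-fold lower in 2i, and the log2 difference of −1.58 did not pass (SE 0.519, limma adjusted p = 0.109), though it did in 4 alternatives, among them the fit without serum shSetdb1 replicate 3 (limma adjusted p = 0.0173) and that with a replicate block over all libraries (limma adjusted p = 0.0319). With the knockdown in serum it was 3.88-fold higher on average, with the third library below all controls. Its log2 change of 1.04 did not pass (SE 0.519, 95% interval −0.07 to 2.14, limma adjusted p = 1). Without that library the change was 1.84 and passed (limma adjusted p = 0.0457), and without shSetdb1 replicate 2 it was 0.52. An antisense gene, Gm2164, overlaps Pou3f1 in the GRCm38 annotation.

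Wnt8a, the Wnt ligand, had 3.84, 0 and 0 normalised reads in 2i shSetdb1 libraries and 0 reads in all 3 2i shScr libraries. In serum it had 79.9, 205.5 and 13.4 in shSetdb1 libraries against 0, 27.5 and 6.42 in shScr libraries. Each serum knockdown library exceeded the control of its number, while replicate 3 of the knockdown lay below replicate 2 of the control. The means were 99.6 ± 97.5 and 11.3 ± 14.4 normalised reads (SD, n = 3 each), 8.8-fold higher with the knockdown. The log2 change of 1.58 had an unadjusted p = 0.00702 and did not pass (SE 0.507, 95% interval 0.50 to 2.66, limma adjusted p = 0.407, or 0.0566 with the replicate block). Without shSetdb1 replicate 2 it was 1.00. Wnt8a averaged 2.35 above the lowest deposited value in serum shSetdb1, against 0.77 in serum shScr, 0.2 in 2i shSetdb1 and 0 in 2i shScr. Its serum shSetdb1 values thus brought it into the tested set, which kept genes averaging at least 0.5 above that lowest value. The p-values of this change therefore describe Wnt8a and support nothing further. Between media in shSetdb1 cells, Wnt8a was lower in all 3 2i libraries than in any serum shSetdb1 library, with a log2 difference of −2.15 (SE 0.507, limma adjusted p = 0.0292). This call was lost without serum shSetdb1 replicate 1 or 2 (limma adjusted p = 0.0843 and 0.165) and without 2i shSetdb1 replicate 2 or 3 (limma adjusted p = 0.0967 and 0.107). In shScr cells the log2 difference was −0.77 (SE 0.507, limma adjusted p = 0.482).

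Fgf5, the growth factor often used to mark primed epiblast, was scarce even in cells labelled primed. In 2i it had 0 reads in all 6 libraries. In serum it had 14.5, 4.21 and 0.959 normalised reads in serum shSetdb1 libraries against 0, 20.4 and 0 in serum shScr libraries. Those are 25 and 23 reads over the groups, with group means of 6.54 and 6.81 normalised reads, so no difference with the knockdown was detectable at this depth. Against 3 reads over the group, counting error only, 2i was at least 5.79-fold lower in shSetdb1 cells. That bound leaned on replicate 1, which held 19 of the 25 serum reads, while replicate 3 held 1. With no filter on low values, the log2 difference in shSetdb1 cells was −0.69 and did not pass (SE 0.304, limma adjusted p = 0.2825). No bound is given for shScr cells, because all 23 serum reads came from replicate 2.

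**Figure D3:**
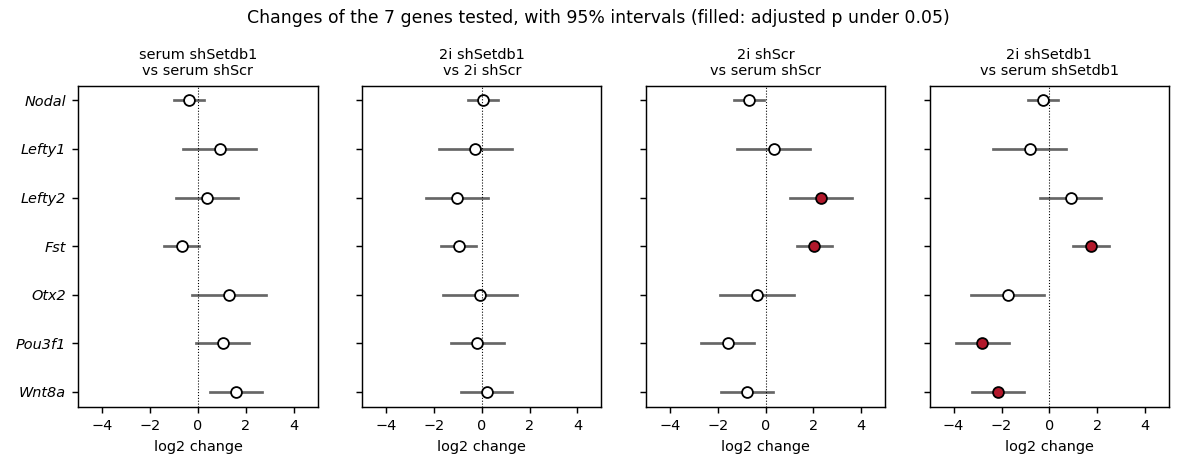
Log2 changes of the 7 tested genes in 4 comparisons, with 95% intervals from limma and filled points at an adjusted p under 0.05. Most knockdown intervals cross 0, and the filled points are Lefty2 and Fst between media in shScr cells and Fst, Pou3f1 and Wnt8a between media in shSetdb1 cells.

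Other genes that carry the Nodal signal were read beside the 9. Of 8 further ligands, co-receptors and convertases, 5 were tested, and 0 passed with the knockdown in either medium (median log2 change 0.20 in 2i and −0.15 in serum, where the medians over all genes were 0.01 and 0.00). Inhbb, the activin B subunit, had 45.6, 70.7 and 236 normalised reads in serum shSetdb1 libraries against 442, 291 and 676 in serum shScr libraries, with a log2 change that came to −1.84 (SE 0.47, limma adjusted p = 0.144). Pcsk6, a convertase that can process Nodal, had 211, 112 and 248 in serum shSetdb1 libraries against 617, 250.5 and 721 in serum shScr libraries, with a log2 change that came to −1.24 (SE 0.362, limma adjusted p = 0.269). With the replicate block both passed in serum (limma adjusted p = 0.00884 for Inhbb and 0.0144 for Pcsk6). Between media, Inhbb was lower in 2i in shScr cells, at 29.6, 2.07 and 7.04 normalised reads against the serum values above, a log2 difference of −3.53 (limma adjusted p = 0.00138). Pcsk6 was higher in 2i in shSetdb1 cells by 1.48 (limma adjusted p = 0.0348), a call lost without serum shSetdb1 replicate 1 or 2, 2i shSetdb1 replicate 2 or 3, or 2i shScr replicate 2 (limma adjusted p up to 0.191). The co-receptor Tdgf1, also called Cripto, had 5105, 15920 and 14790 normalised reads in 2i shSetdb1 libraries against 8584, 5998 and 14900 in 2i shScr libraries, and it passed in none of the 4 comparisons. Inhba, the activin A subunit, had at most 0.842 normalised reads in any library.

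Of 8 receptors and transducers, 7 were tested and 0 passed with the knockdown in either medium (median −0.20 in 2i and −0.36 in serum). Smad3, a transducer, was higher in 2i in shScr cells by 1.23 (limma adjusted p = 0.0364), at 352, 370 and 427 normalised reads against 107.5, 111 and 220 in serum. That call was lost without any of the 2i shScr libraries, without serum shScr replicate 1 or 2, or without serum shSetdb1 replicate 2 (limma adjusted p up to 0.157). The log2 change of Smad3 with the knockdown in 2i was −1.06 (limma adjusted p = 0.158, or 0.0418 with the replicate block within medium). Of 10 inhibitors and feedback genes, 9 were tested, and 0 passed with the knockdown in either medium (median −0.18 in 2i and 0.20 in serum). Skil, the corepressor SnoN, was lower in 2i in both arms, by −2.35 in shSetdb1 cells (limma adjusted p = 0.00713, lost at 0.0557 without serum shSetdb1 replicate 2) and by −1.81 in shScr cells (limma adjusted p = 0.0289). In shScr cells that call was lost without any 2i shScr library or serum shScr replicate 1 or 2 (limma adjusted p up to 0.132). Bambi, a pseudoreceptor, had 278, 351 and 368 normalised reads in 2i shSetdb1 libraries against 113, 93.1 and 211 in 2i shScr libraries. It had 418, 223 and 530.2 in serum shSetdb1 libraries against 169, 86.2 and 146.5 in serum shScr libraries. The knockdown libraries lay above the controls in both media, with log2 changes of 1.10 and 1.27 that did not pass (limma adjusted p = 0.265 in 2i and 0.228 in serum). With the replicate block within medium both passed (limma adjusted p = 0.0387 in 2i and 0.0288 in serum). Averaged over both media Bambi was higher with the knockdown by 1.19 (SE 0.251, limma adjusted p = 0.018). That comparison was added after values were seen, and 1.76% of genes were higher in it. Also higher in it were 1 naive pluripotency gene and 1 fibroblast or feeder marker of the lists below. Of 7 further target genes, 3 were tested, Eomes, Gsc and T, and 0 passed with the knockdown. T, the primitive streak factor Brachyury, was higher in 2i in shScr cells, at 82.3, 65.5 and 175 normalised reads against 0, 8.88 and 0 in serum (log2 difference 2.38, limma adjusted p = 0.00904). It did not pass without 2i shScr replicate 3 (limma adjusted p = 0.0588) or by voom. T had at most 8.88 normalised reads in any serum library and entered the tested set through 2i. The call therefore describes T and supports nothing further. With the knockdown in 2i the log2 change of T was −1.56 (limma adjusted p = 0.173, or 0.01985 with the replicate block within medium).

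Among 16 other formative and primed epiblast genes, 15 were tested and 0 passed with the knockdown in 2i or in serum, with medians of −0.04 and 0.22. Between media, 5 of the 15 passed as lower in 2i in shSetdb1 cells (median −1.65, all 15 negative), where 1.6% of all tested genes did. In shScr cells 3 of 15 passed as lower (median −1.10), where 1.88% of genes did. The median of all genes was −0.05 in both arms. Dnmt3a, a de novo DNA methyltransferase, had 611, 194 and 252 normalised reads in 2i shSetdb1 libraries against 3604, 3358 and 1329 in serum shSetdb1 libraries, and 293, 281 and 114 in 2i shScr libraries against 1335, 1473 and 780.5 in serum shScr libraries. Its log2 differences were −2.85 in shSetdb1 cells (limma adjusted p = 0.00387) and −2.23 in shScr cells (limma adjusted p = 0.0144, lost at up to 0.087 without serum shScr replicate 1 or 2 or 2i shScr replicate 3). Etv4, an ERK-responsive transcription factor, was lower by −3.21 in shSetdb1 cells (limma adjusted p = 0.0013) and by −1.74 in shScr cells (limma adjusted p = 0.0407). Fgf15, a growth factor, was lower by −1.65 in shSetdb1 cells (limma adjusted p = 0.0369) and by −2.36 in shScr cells (limma adjusted p = 0.00521). Fgf15 had at most 2.35 normalised reads in any 2i library, so its serum values brought it into the tested set. These calls, both in the counts above, therefore describe Fgf15 and support nothing further, and nothing is read from those counts. Lin28b, an RNA-binding protein, passed in shSetdb1 cells at −2.93 (limma adjusted p = 0.0444), while its difference in shScr cells was −2.67 (limma adjusted p = 0.0651). Sall2, a zinc finger factor, passed in shSetdb1 cells at −2.05 (limma adjusted p = 0.0179), while its difference in shScr cells was −0.42 (limma adjusted p = 0.705). The differences between the arms did not pass (limma adjusted p = 1.00 for both). The calls of Lin28b, Sall2 and Fgf15 in shSetdb1 cells and of Etv4 in shScr cells were each lost without some single libraries, serum replicate 1 or 2 of the same arm among them (limma adjusted p up to 0.209, 0.109, 0.189 and 0.136). With the knockdown in 2i, the replicate block within medium passed Etv4 at −1.73 (limma adjusted p = 0.01985, or 0.0828 without). It also passed Grhl2 at 1.23 (limma adjusted p = 0.0321, or 0.821 without).

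**Figure D4:**
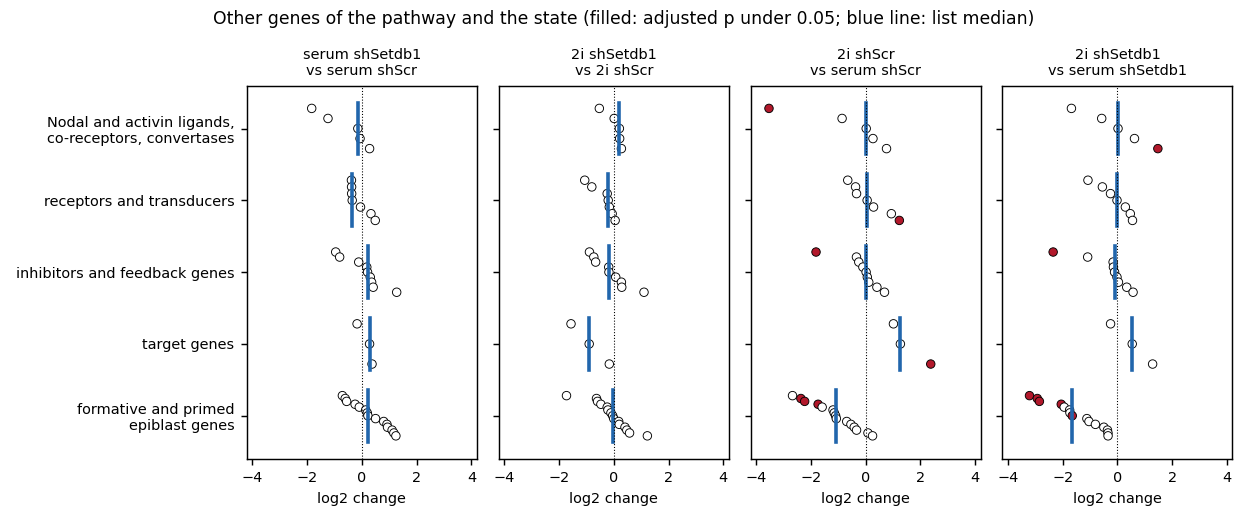
Log2 changes of the tested genes of 5 lists in 4 comparisons, 1 point per gene, with a blue line at the list median and filled points at an adjusted p under 0.05. Points of the knockdown comparisons are all open, and the formative and primed list has medians of −1.65 and −1.10 between media.

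Genes that respond to the pathways the 2i inhibitors act on were read as well, and most did not pass. Of 10 MEK-ERK response genes, 10 had a negative log2 difference, 2i minus serum, in shSetdb1 cells and 9 in shScr cells, with medians of −1.50 and −1.37. In shSetdb1 cells 4 passed as lower in 2i (Spry4, Dusp4, Dusp6 and Etv4), where 1.6% of genes did. In shScr cells 2 did (Spry4 and Etv4), where 1.88% of genes did. The call of Dusp6 was lost without serum shSetdb1 replicate 1 or 2 or 2i shSetdb1 replicate 3 (limma adjusted p up to 0.0595), and that of Spry4 in shScr cells without serum shScr replicate 1 or 2 (up to 0.0586). Of 10 tested Wnt response genes, 2 were higher in 2i in shSetdb1 cells (Sp5 and Apcdd1), where 2.15% of genes were. In shScr cells 3 were higher (Axin2, Sp5 and T), where 1.73% were. The medians were 0.57 and 0.68. Sp5 and T had at most 10.95 and 8.88 normalised reads in any serum library and entered the tested set through 2i. Their calls describe them and support nothing further, and nothing is read from these Wnt counts. In shSetdb1 cells the call of Sp5 was lost without serum shSetdb1 replicate 1 or 2i shSetdb1 replicate 3 (limma adjusted p up to 0.065), and that of Apcdd1 without serum shSetdb1 replicate 2 (0.11). Apcdd1, a Wnt inhibitor, also passed with the knockdown in 2i, at 368, 169.5 and 163 normalised reads in shSetdb1 libraries against 77.3, 33.8 and 23.5 in shScr libraries. Its log2 change of 1.73 (limma adjusted p = 0.0446) was lost in 11 of the 12 fits without 1 library (limma adjusted p up to 0.206). Of 14 naive pluripotency genes, 0 passed with the knockdown in either medium, with medians of −0.29 in 2i and −0.82 in serum. With the replicate block within medium 3 of them passed in serum, where 1.46% of genes did. Tbx3 was lower at −1.20 (limma adjusted p = 0.0327, or 0.539 without the block) and Nr0b1 was lower at −1.23 (limma adjusted p = 0.0473, or 0.524 without). Dppa3, also called Stella, was higher at 3.15 (limma adjusted p = 0.000117, or 0.194 without), with 405, 1850.0 and 1755 normalised reads in serum shSetdb1 libraries against 42.3, 163.5 and 93.0 in serum shScr libraries. The block also passed Klf4, Tcl1 and Dppa3 in 2i, where it passed 2.93% of genes. Klf4 was lower there at −1.10 (limma adjusted p = 0.0487, or 0.31 without) and Tcl1 at −1.04 (limma adjusted p = 0.0487, or 0.519 without). Dppa3 was higher there at 2.89 (limma adjusted p = 0.000148, or 0.185 without). In shSetdb1 cells Tcfcp2l1 and Prdm14 were higher in 2i, by 1.85 and 1.48 (limma adjusted p = 0.0363 and 0.022). Both calls were lost without serum shSetdb1 replicate 2, among other libraries (limma adjusted p up to 0.189 and 0.122). General pluripotency genes, which include Pou5f1, summed to 29350 to 53280 normalised reads per library, and 0 of 7 passed with the knockdown. Dppa4 was lower in 2i by −1.19 in shSetdb1 cells (limma adjusted p = 0.0358) and by −1.48 in shScr cells (limma adjusted p = 0.0114), and Lin28a was lower in 2i by −2.37 in shSetdb1 cells (limma adjusted p = 0.0365). These 3 calls were lost without some single libraries, 2i replicate 2 and serum replicate 2 of the same arm among them (limma adjusted p up to 0.12, 0.0707 and 0.157). BMP signalling genes, of which 9 were tested, also had 0 passing with the knockdown. Id1, a BMP target, was lower in 2i by −3.15 in shSetdb1 cells (limma adjusted p = 0.00329) and by −2.53 in shScr cells (limma adjusted p = 0.00922). Its call in shScr cells was lost without replicate 2 of either shScr group (limma adjusted p up to 0.0609). Id1 had at most 16.4 normalised reads in any 2i library, and its serum values brought it into the tested set. Both calls therefore describe Id1 and support nothing further. Id2, a related target, was lower in 2i by −1.47 in shSetdb1 cells (limma adjusted p = 0.0396) and by −1.90 in shScr cells (limma adjusted p = 0.0102). Bmp7, a BMP ligand, was higher in 2i by 1.77 in shScr cells (limma adjusted p = 0.0465). The calls of Id2 and Bmp7 were lost without serum replicate 2 of the same arm, among other libraries (limma adjusted p up to 0.189, 0.0592 and 0.175). Neural markers summed to 412 to 930 normalised reads, and 0 of the 3 tested passed in any of the 4 comparisons.

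Fibroblast and feeder markers, 8 genes, summed to 802, 130 and 603 normalised reads in 2i shSetdb1 libraries against 45.5, 57.2 and 43.4 in 2i shScr libraries. They summed to 76.8, 80.9 and 107 in serum shSetdb1 libraries against 48.9, 53.3 and 219 in serum shScr libraries. Lum, the proteoglycan lumican, made up most of the 2i sum, at 735.5, 101.5 and 542 normalised reads against 0, 2.76 and 0, and was the 1 gene of 3 tested that passed (log2 change 4.03, limma adjusted p = 0.000236). Lum had at most 6.845 normalised reads in any library of the other groups, so its 2i shSetdb1 values brought it into the tested set. The call therefore describes Lum and supports nothing further. The collagens Col1a1, Col1a2 and Col3a1 had at most 15.3 normalised reads in any library. The part of such cells in the values of the 9 genes was not tested.

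Likeness over the libraries was computed for the 7 tested genes. After subtraction of group means, Lefty1 and Lefty2 deviated together over the 12 libraries (Pearson r = 0.90), as did Wnt8a and Pou3f1 (r = 0.86), Lefty1 and Nodal (r = 0.75) and Otx2 and Lefty1 (r = 0.73). Fst and Lefty2 had r = −0.57. These are descriptions of libraries that share depth, composition and replicate number, and the Lefty pair may also share reads. Over the deposited values themselves, the 3 genes most like Fst across the 12 libraries were Piga (r = 0.96), Sod2 (r = 0.96) and Mt2 (r = 0.94). Those most like Pou3f1 were Gm98 (r = 0.96), Mmp25 (r = 0.95) and Col6a4 (r = 0.95), and those most like Wnt8a were Car4 (r = 0.95), Atp10a (r = 0.94) and Myl9 (r = 0.93). Lefty2 was most like Slc16a5 (r = 0.94), Nodal most like Gtf2e1 (r = 0.93), Otx2 most like Zfp53 and Hes6 (r = 0.90 each) and Lefty1 most like Pja1 (r = 0.89).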

How the data were processed

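RNA was depleted of ribosomal RNA and sequenced in directional libraries, per the labels' protocols. The submitters' processing notes list, without roles, mm9 and TopHat2 2.0.9, DESeq2 and Trim Galore 0.3.3. For counting, the tool, annotation, strand and handling of multiply mapped reads: not given in the sources used here. The deposited values are log2-scale, variance-stabilised by the authors. Inverting that transformation gave whole reads for 100% of values (largest distance from a whole number 0.000317 for genes and 0.00586 for repeats). The test was two-sided limma (3.58.1, R 4.3.3) on the deposited values, fitting 4 group means to 12 libraries, which leaves 8 residual df, with a mean-variance trend. Genes averaging at least 0.5 above the lowest value (4.4522) were kept, 14487 of 26061. The fitting was tested on simulated counts, drawn with the same dispersion for every gene and no replicate effect. That run checks the code and not error rates at the spread of these libraries. Named were the 9 members, list genes that passed, and the genes most correlated with each member. Bambi, Inhbb, Pcsk6, Tbx3, Nr0b1, Dppa3, Klf4, Tcl1 and Grhl2, which passed with the replicate block, were named after their values were seen. The 2i block calls of Smad3, T and Etv4 were likewise added after their values were seen. The members and lists were chosen with earlier results of these data known. Tfcp2l1 was matched as Tcfcp2l1, and 1 list gene was not matched. Same-numbered serum libraries deviated together (r = 0.58, 0.23 and 0.51 between shSetdb1 and shScr over genes). In 2i those of replicates 1 and 3 did, and those of replicate 2 hardly did (0.46, 0.06 and 0.52). Knockdown calls that the block within medium adds are given for both media. The pairing comes from the data, since the labels give numbers alone. Sequences are GENCODE transcripts of GRCm38; with the files on mm9, no gene coordinates are given.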

Additional observations from a re-analysis of the deposited data

How the results depend on the processing

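Depth limits Fgf5, Cer1 and, in 2i, Wnt8a and Pou3f1, which had 0 to 10 reads over a group. Genes passing with the knockdown in serum numbered 94, but 62 by voom, 54 without replicate 3 of every group (chosen after seeing the data), 171 with a replicate block over all libraries and 211 with a replicate block within medium; leaving out 1 library gave 37 to 116. In 2i they numbered 184, but 88 with only the groups compared, 102 by voom, 89 without every replicate 3, 321 and 425 with the 2 blocks, and 99 to 253 without 1 library. For the difference of the changes they numbered 0, but 2 with the block within medium, and 0 to 1 without 1 library. Between media in shSetdb1 cells they numbered 543, but 195 with only the groups compared, 361 on log2(normalised reads + 1), 212 by voom, 1583 with the block, and 144 to 1522 without 1 library. In shScr cells they numbered 524, but 314 by voom, 1351 with the block, and 171 to 773 without 1 library. Members passing in serum numbered 0, but 1 (Otx2) with the block within medium and 0 to 1 (Pou3f1) without 1 library. Between media in shSetdb1 cells they numbered 3, but 1 under the stricter filter, which drops Wnt8a and Pou3f1, 0 with only the groups compared, 1 by voom, and 0 to 3 without 1 library. In shScr cells they numbered 2, but 1 with no filter, the stricter filter, no trend, voom or without every replicate 3, and 1 to 3 without 1 library. The block within medium could not be fitted between media.

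Some small log2 changes turned sign, and the cause was not tested. Leaving out 1 library moved Otx2 with the knockdown in 2i between −0.718 and 0.507, Lefty1 between −0.818 and 0.562, Nodal between −0.165 and 0.339 and Wnt8a between 0 and 0.3. Likewise Lefty2 with the knockdown in serum ran from −0.336 to 0.853. Between media, Otx2 ran from −1.15 to 0.218 and Lefty1 from −0.311 to 0.917 in shScr cells, and Lefty1 from −1.374 to 0.005 and Nodal from −0.482 to 0.022 in shSetdb1 cells. Without replicate 3 of every group, Otx2 with the knockdown in 2i was 0.153, Nodal was −0.128 and Lefty1 between media in shScr cells was −0.394. Nodal with the knockdown in 2i was −0.003 after median centring and −0.094 by voom. The difference of the Fst changes was 0.173 on log2(normalised reads + 1) and 0.151 by voom.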
